A study of Bos taurus with 6 samples.

Results

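The collagen chains described here are those that build the fibrils of cartilage and of fibrous connective tissue: COL2A1, COL11A1, COL11A2, COL9A1 and COL9A2 on one side, and COL1A1, COL1A2, COL3A1, COL5A1 and COL5A2 on the other. Members were the probe sets, each a group of short probes against 1 transcript, whose only annotated gene symbol is among these 10 genes. The rule found 21 of the 24016 probe sets tested, for 8 of the 10 genes. COL5A1 and COL9A2 matched no probe set and are not analysed here. The probe sets are spread unevenly, with 7 for COL11A1, 4 for COL2A1, 2 each for COL9A1, COL1A1, COL1A2 and COL3A1, and 1 each for COL11A2 and COL5A2, and probe sets of 1 gene share their target.

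The samples were bovine articular chondrocytes, the cells that make joint cartilage, isolated from the metacarpal-phalangeal joints of cows and plated at high density as micromass cultures. The untreated group held 3 cultures and the TGF-β1 group held 3 cultures given 5 ng/ml of the growth factor for 8 hours, numbered 1 to 3 in each group. The breed, sex and age of the cows were not given in the sources used here. RNA was hybridised to the Affymetrix Bovine Genome Array.

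Fibrillar collagens are trimers wound into a long triple helix, secreted as procollagens and assembled outside the cell into fibrils. In cartilage the bulk of the fibril is type II collagen, type XI collagen lies inside it and limits its width, and type IX collagen sits on its surface. Types I, III and V form the fibrils of skin, tendon and bone, and chondrocytes that lose their character in culture are known for making more of type I. TGF-β is widely known as an inducer of collagen synthesis in fibroblasts.

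Values are log2 signals in which the median of each probe set over the 6 arrays had been set to 0. They compare arrays with one another and carry no level, so the chains cannot be ranked by abundance and the labelled cell type cannot be checked for presence of its markers. Differences are TGF-β1 minus untreated, within replicate numbers, and were tested with limma in a fit that holds the replicate number as a term (the paired fit). The words rose and fell are kept for an adjusted p under 0.05 (Benjamini-Hochberg, across the 24016 probe sets). The standard error (SE) is that of the paired fit, with n = 3 pairs throughout, and the number of arrays limits the precision of every value.

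The array data as a whole had features that touch the collagen values. Both replicate 3 arrays carried high signals of cell cycle genes, with medians of 2.33 and 2.16 log2 units over 24 probe sets against -0.30 to -0.03 on the other 4 arrays. The TGF-β1 array of replicate 2 had bright bacterial spike-in controls, with a median of 1.53 log2 units over 18 probe sets against -0.17 to 0.06 elsewhere. The part of either in the collagen values was not tested.

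COL11A1, which encodes a chain of type XI collagen, and COL1A2, which encodes a chain of type I collagen, fell with TGF-β1, and no chain rose. Of the 21 probe sets, 6 fell, 0 rose and 15 did not pass the test, where 3.46% of all probe sets fell and 2.44% rose. At an unadjusted p under 0.05, 11 were lower and 0 higher, where 11.1% and 8.60% of all probe sets were. The median difference over the 21 probe sets was -0.39 log2 units, and that over all probe sets was 0.01. On gene means, 2 of 8 genes fell (COL11A1 and COL1A2) and 0 rose, where 4.58% and 2.24% of 9155 genes did. Without the replicate number in the fit, limma called 0 of the 21 probe sets. Before adjustment it put 0 of 21 under 0.05 in either direction, where 2.70% of all probe sets were higher and 3.03% lower. The methods' t-test called 0 of 21 as well, and 0 before adjustment, where 2.30% of all were higher and 480 probe sets lower.

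The direction within each replicate number was counted next, a count added after the values were seen. All 3 differences were negative in 13 of 21 probe sets, where 20.0% of all probe sets behaved so, and all 3 were positive in 1, where 20.6% did. Leaving out COL11A1, 7 of the other 14 probe sets were lower in all 3 pairs. By gene means, COL11A1, COL11A2, COL1A2 and COL3A1 were lower in all 3 pairs, 4 of 8 genes where 24.4% of all genes were, and 0 genes were higher in all 3, where 19.8% were. The 3 TGF-β1 arrays lay below the 3 untreated arrays without overlap in 1 member probe set, where 4.91% of all probe sets did, and above them in 0, where 6.11% did.

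**Figure D1:**
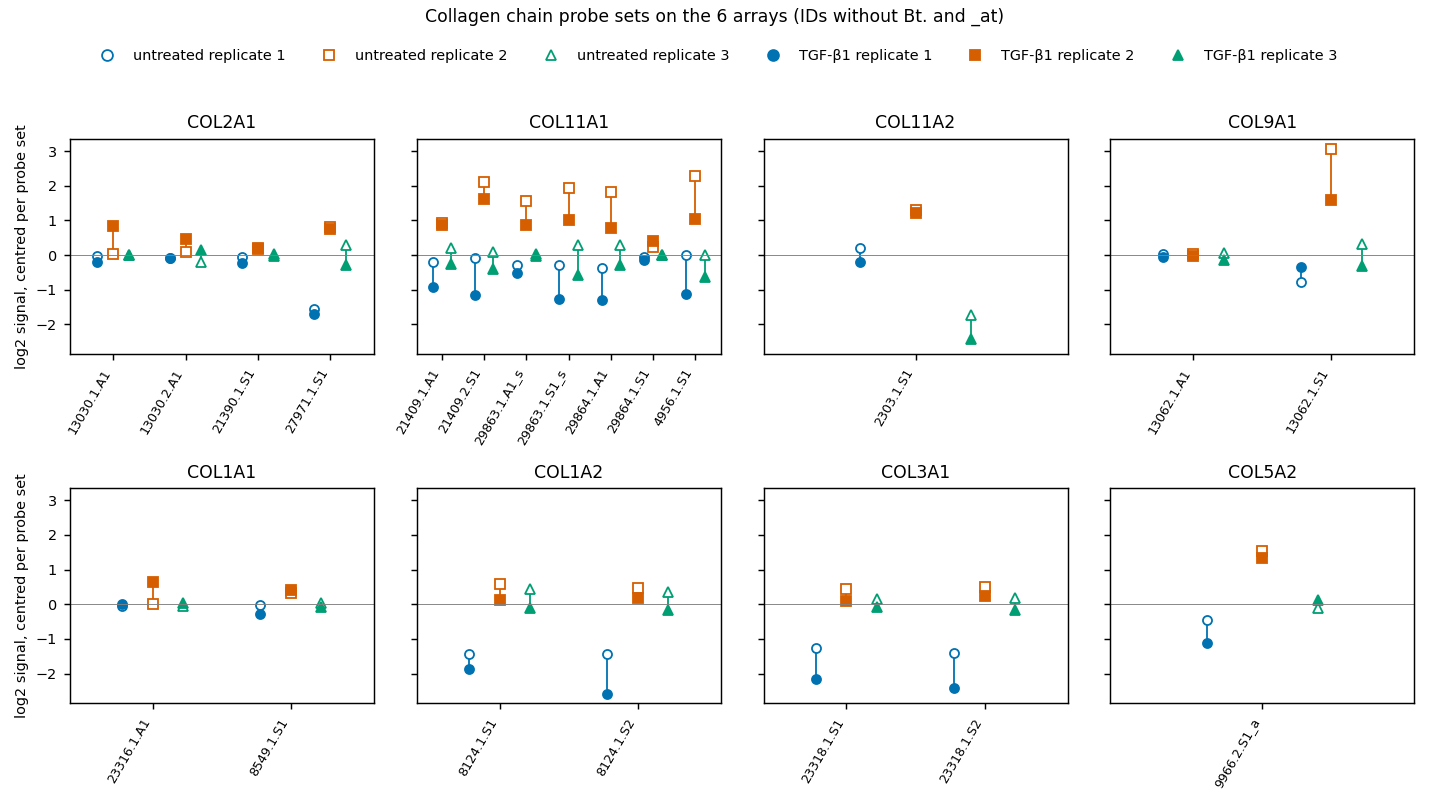
Centred log2 signal (y axis) of each collagen chain probe set (x axis) on the 6 arrays, with untreated arrays as open and TGF-β1 arrays as filled symbols, joined within a replicate. Most COL11A1 probe sets, Bt.13062.1.S1_at of COL9A1 and the COL5A2 probe set were high in replicate 2. COL1A2 and COL3A1 were low in replicate 1, and COL11A2 was high in replicate 2 and low in replicate 3.

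COL2A1 encodes the only chain of type II collagen. Its 4 probe sets had differences of 0.21, 0.24, -0.07 and -0.26 log2 units, and none passed the test. The gene mean had a difference of 0.03 log2 units (SE 0.111) with a 95% interval of -0.23 to 0.29. The replicate differences of the mean were -0.12, 0.29 and -0.08, a spread around 0.

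The probe sets of COL2A1 disagreed in how far they varied at all. On Bt.27971.1.S1_at the untreated values were -1.57, 0.80 and 0.29 and the TGF-β1 values -1.71, 0.75 and -0.29 for replicates 1, 2 and 3. Replicate 1 was thus far below the others in both groups, and the 3 differences were all negative (-0.14, -0.05 and -0.58). On Bt.21390.1.S1_at the untreated values were -0.07, 0.17 and 0.04 and the TGF-β1 values -0.23, 0.20 and -0.04. Here no array stood apart, and the replicate means spanned 0.34 log2 units against 2.41 on Bt.27971.1.S1_at. The remaining probe sets, Bt.13030.1.A1_at and Bt.13030.2.A1_at, spanned 0.55 and 0.35. The positive difference of Bt.13030.1.A1_at came from replicate 2, whose difference was 0.81 against -0.17 and -0.02, and without that replicate it was -0.09. Without replicate 2 the gene mean was -0.10. With the most variable probe set standing for the gene the difference was -0.26 (adjusted p over genes 0.315). The gene mean averages 1 probe set that varied widely with others that varied little, so it does not show that COL2A1 was unchanged.

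COL11A1 encodes the α1 chain of type XI collagen, which nucleates cartilage fibrils and limits their width. Its gene mean fell by 0.60 log2 units (SE 0.0968, 95% interval -0.83 to -0.37, adjusted p over genes 0.0169 by limma), which is 1.51-fold. Of its 7 probe sets, 4 fell, by 0.68 to 1.0 log2 units. On Bt.4956.1.S1_at, with the largest fall, the untreated values were -0.01, 2.27 and 0.01 and the TGF-β1 values -1.12, 1.03 and -0.63. Each treated culture was below its untreated partner, yet the treated culture of replicate 2 was above the untreated cultures of replicates 1 and 3.

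The steadiest of the 4 was Bt.29863.1.S1_s_at. It read -0.30, 1.93 and 0.30 in the untreated cultures and -1.28, 1.0 and -0.58 in the treated ones, with differences of -0.98, -0.93 and -0.87 (mean -0.93, SE 0.105, adjusted p = 0.00208 by limma). The ending _s_at marks probe sets that may bind transcripts of more than 1 gene. Bt.29864.1.A1_at had -0.38, 1.83 and 0.28 against -1.29, 0.77 and -0.28, and Bt.21409.2.S1_at had -0.08, 2.11 and 0.08 against -1.16, 1.63 and -0.41. In both the order of the replicates was the same in the 2 groups, with replicate 2 on top and replicate 1 at the bottom of the treated cultures. Bt.29863.1.S1_s_at and Bt.4956.1.S1_at kept an adjusted p under 0.05 without any 1 of the 3 replicates (highest 0.0200 and 0.0476). Bt.29864.1.A1_at had 0.0550 without replicate 2, and Bt.21409.2.S1_at had 0.131 and 0.0778 without replicates 1 and 2. On the gene mean, the adjusted p was 0.0840 and 0.0839 without replicates 1 and 2. With quantile normalization the gene mean had -0.56 (0.0579) and Bt.21409.2.S1_at had 0.0989, so that both calls were lost.

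The other 3 probe sets of COL11A1 did not pass. Bt.21409.1.A1_at (-0.41, adjusted p = 0.137) and Bt.29863.1.A1_s_at (-0.33, adjusted p = 0.215) were lower in all 3 pairs (limma, paired fit). Bt.29864.1.S1_at was flat, with a difference of 0.02 and a range of 0.52 log2 units over the 6 arrays. It carries the same sequence record as Bt.29864.1.A1_at, whose range was 3.12. The letters A and S in such IDs tell apart the orientations in which the array maker laid out a record, and COL9A1 has a pair of this kind as well. There the A probe set ranged over 0.22 log2 units and the S probe set over 3.84, the reverse of the COL11A1 pair. In a further COL11A1 pair, Bt.29863.1.A1_s_at and Bt.29863.1.S1_s_at, both orientations moved, with ranges of 2.08 and 3.21. Which orientation reads the mRNA was not given in the sources used here. Gene means of COL11A1 and COL9A1, like that of COL2A1, include probe sets that scarcely moved.

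COL11A2 encodes the α2 chain of type XI collagen, the partner of COL11A1 in the trimer. Its only probe set read 0.20, 1.29 and -1.74 in the untreated cultures and -0.20, 1.21 and -2.43 in the treated ones. All 3 differences were negative (-0.41, -0.08 and -0.69), with a mean of -0.39 (SE 0.134, 95% interval -0.70 to -0.09, adjusted p = 0.140 by limma). Set side by side with COL11A1, whose gene mean differences were -0.73, -0.61 and -0.45, the chains were lower in every pair. The difference between them was -0.20 log2 units (SD 0.40, n = 3 pairs), with an exact two-sided sign-flip p of 0.5.

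COL9A1 encodes a chain of type IX collagen, which carries no long fibril of its own and coats those of type II. Its S probe set, Bt.13062.1.S1_at, read -0.78, 3.06 and 0.31 in the untreated cultures and -0.34, 1.58 and -0.31 in the treated ones. It was lower with TGF-β1 in replicates 2 and 3, by -1.48 and -0.62, and higher in replicate 1, by 0.45. The mean of -0.55 (SE 0.286, adjusted p = 0.344 by limma) did not pass the test, and the 95% interval ran from -1.21 to 0.10. Without replicate 1 the difference was -1.05 with an adjusted p of 0.0175. The A probe set, Bt.13062.1.A1_at, is the member whose groups did not overlap, with 0.02, 0.04 and 0.07 untreated and -0.07, -0.02 and -0.15 with TGF-β1. That difference was only -0.12 log2 units (adjusted p = 0.606 by limma).

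**Figure D2:**
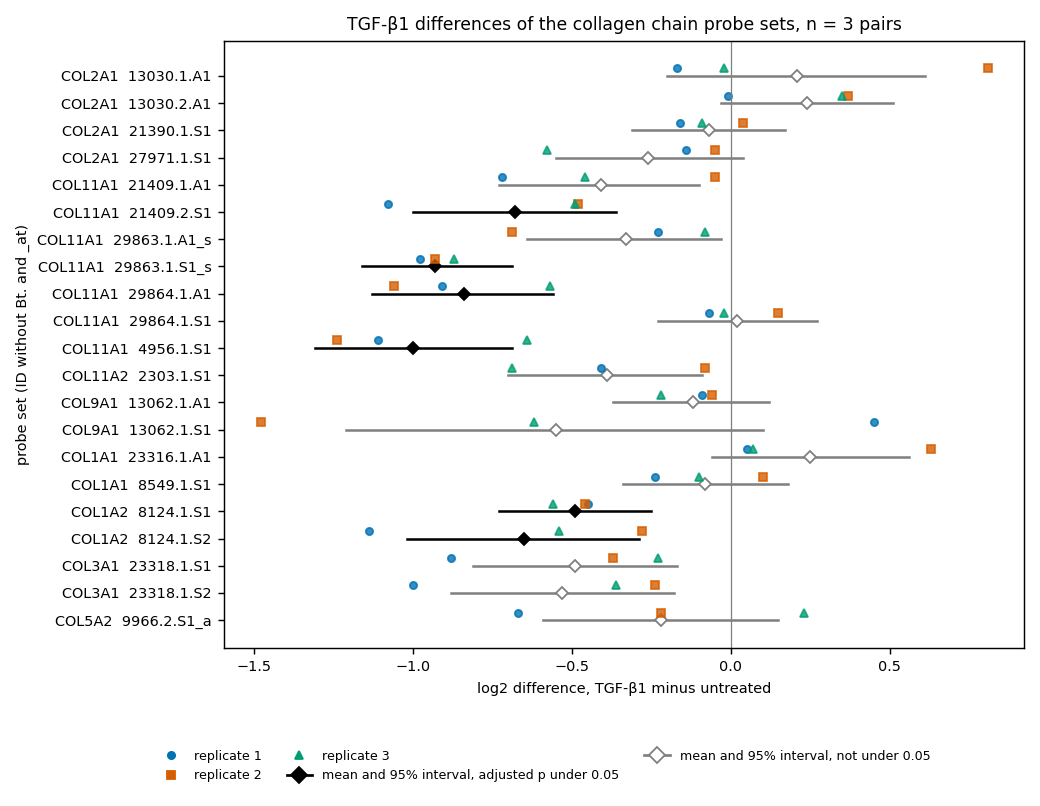
Log2 difference, TGF-β1 minus untreated (x axis), of each collagen chain probe set (y axis), with replicate differences as coloured symbols and the paired mean with its 95% interval as diamonds and bars, filled where the adjusted p was under 0.05. The 6 filled diamonds, 4 of COL11A1 and 2 of COL1A2, lie between -1.0 and -0.49, and the COL2A1 and COL1A1 means lie between -0.26 and 0.25.

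COL1A2 encodes the α2 chain of type I collagen, the main fibril of bone, skin and tendon. Both of its probe sets fell. Bt.8124.1.S1_at read -1.43, 0.58 and 0.44 in the untreated cultures and -1.88, 0.12 and -0.12 in the treated ones, and differed by -0.49 (SE 0.105, adjusted p = 0.0299 by limma). Bt.8124.1.S2_at read -1.44, 0.46 and 0.36 untreated and -2.58, 0.17 and -0.17 treated, and differed by -0.65 (SE 0.160, adjusted p = 0.0498 by limma). In both, replicate 1 was far below the other replicates with and without TGF-β1, and each treated culture was below its partner. The gene mean fell by 0.57 log2 units (SE 0.108, 95% interval -0.83 to -0.31, adjusted p over genes 0.0282), which is 1.49-fold. These calls rest on all 3 replicates: without replicates 1, 2 and 3 the gene mean had an adjusted p of 0.127, 0.0598 and 0.0685, with differences of -0.46, -0.67 and -0.58. Bt.8124.1.S2_at, which held without replicate 3 (0.0435), had 0.0504 with limma's robust prior. With quantile normalization every COL1A2 call was lost (0.102 and 0.0529 for the probe sets, 0.0577 for the gene mean), and with the most variable probe set standing for the gene the adjusted p was 0.0669.

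COL1A1 encodes the α1 chain that pairs with COL1A2 in the type I trimer, and neither of its probe sets passed the test. Bt.8549.1.S1_at read -0.03, 0.32 and 0.03 untreated and -0.27, 0.42 and -0.07 treated, a difference of -0.08 (SE 0.114). Bt.23316.1.A1_at read -0.05, 0.00 and -0.04 untreated and -0.00, 0.63 and 0.03 treated, a difference of 0.25 (SE 0.138). The latter is the member with positive differences in all 3 pairs, and 0.63 of replicate 2 stands above 0.05 and 0.07. The gene mean was 0.08 (95% interval -0.19 to 0.36), or -0.06 without replicate 2.

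The COL1A1 mean difference exceeded that of COL1A2 in all 3 replicates, by 0.70, 0.74 and 0.54 log2 units (mean 0.66, SD 0.11, n = 3 pairs). It was 1 of 5 chain comparisons. Over 3 pairs the exact two-sided sign-flip test cannot give a p below 0.25, which is the value here (0.417 after Benjamini-Hochberg adjustment over the 5). COL2A1 exceeded COL11A1 in all 3 replicates as well, by 0.61, 0.90 and 0.37 (mean 0.63, SD 0.27, n = 3 pairs, exact p = 0.25). COL2A1 and COL1A1 differed by -0.06 (SD 0.03, n = 3 pairs, exact p = 0.25), with replicate differences of -0.12, 0.29 and -0.08 for the former and -0.10, 0.36 and -0.01 for the latter. COL2A1 and COL9A1 differed by 0.37 (SD 0.68, n = 3 pairs, exact p = 0.5). Both COL1A1 probe sets varied little, with replicate means spanning 0.34 and 0.53 log2 units against 2.01 and 2.33 for COL1A2. The COL2A1 probe sets other than Bt.27971.1.S1_at also varied little, with spans of 0.34 to 0.55. Whether flat probe sets read their transcript cannot be seen in these values. Comparisons with COL1A1 or COL2A1 thus cannot show whether the chains responded differently.

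COL3A1 encodes the chain of type III collagen, which forms fibrils together with type I. Its probe sets gave nearly the same values. Bt.23318.1.S1_at read -1.27, 0.45 and 0.15 untreated and -2.15, 0.08 and -0.08 treated, and Bt.23318.1.S2_at read -1.42, 0.49 and 0.18 untreated and -2.42, 0.25 and -0.18 treated. As with COL1A2, replicate 1 was lowest in both groups and every treated culture was below its partner. The differences of -0.49 (SE 0.140, adjusted p = 0.0846) and -0.53 (SE 0.153, adjusted p = 0.0870) did not pass the test in limma's paired fit, and the 95% interval of the gene mean ran from -0.85 to -0.17. Without replicate 3, Bt.23318.1.S1_at had -0.62 with an adjusted p of 0.0415.

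COL5A2 encodes a chain of type V collagen, which starts and limits type I fibrils. Its only probe set, Bt.9966.2.S1_a_at, read -0.45, 1.55 and -0.12 untreated and -1.12, 1.33 and 0.12 treated. It was lower in replicates 1 and 2 (-0.67 and -0.22) and higher in replicate 3 (0.23), with a mean of -0.22 (SE 0.162, 95% interval -0.59 to 0.15, adjusted p = 0.533 by limma), and 0.01 without replicate 1.

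The spread between replicates was set beside the TGF-β1 difference. The means of the 3 replicates, each over its untreated and its treated array, spanned more than the TGF-β1 difference in 20 of 21 member probe sets. As 82.6% of all probe sets did so too, this count does little to set the members apart. A range of 3 means tends to exceed 1 mean difference through noise alone. The count thus cannot show that cultures differed more than treatment did. The span reached at least 1 log2 unit in 14 of 21, where 9.21% of all probe sets reached it. Among these 14 it was 2.22 to 10.2 times the size of the TGF-β1 difference. In limma's F-test of the replicate term, which was added after the values were seen, 15 of 21 had an adjusted p under 0.05, where 27.5% of all probe sets did.

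The pattern over replicates differed from chain to chain. All 14 of these probe sets were highest in replicate 2, 13 were lowest in replicate 1 and 1, that of COL11A2, was lowest in replicate 3. COL1A2 and COL3A1 had replicate 2 and replicate 3 close together and replicate 1 apart, with gene means of -1.83, 0.33 and 0.13 for COL1A2 and -1.81, 0.32 and 0.02 for COL3A1. COL11A1 and COL5A2 had replicate 2 apart, with -0.55, 1.24 and -0.09 for COL11A1 and -0.79, 1.44 and 0.00 for COL5A2, and so had the S probe set of COL9A1 (-0.56, 2.32 and 0.00). COL11A2 had 0.00, 1.25 and -2.08, a span of 10.1-fold and the widest among the members. COL1A1 spanned 0.43 and the 3 flatter COL2A1 probe sets at most 0.55.

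The counts were then split by span, after the values were seen. Of the 14 member probe sets that spanned at least 1 log2 unit, 6 fell, where 12.3% of all probe sets of that span did, and 12 were lower in all 3 pairs, where 34.1% were. Of the 7 that spanned less, 0 fell, where 2.56% of all probe sets of that span did, and 1 was lower in all 3 pairs, where 18.6% were, so the 7 are too few to set apart from that share. Since levels are not kept, whether a flat probe set read a transcript at all cannot be seen in these values.

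**Figure D3:**
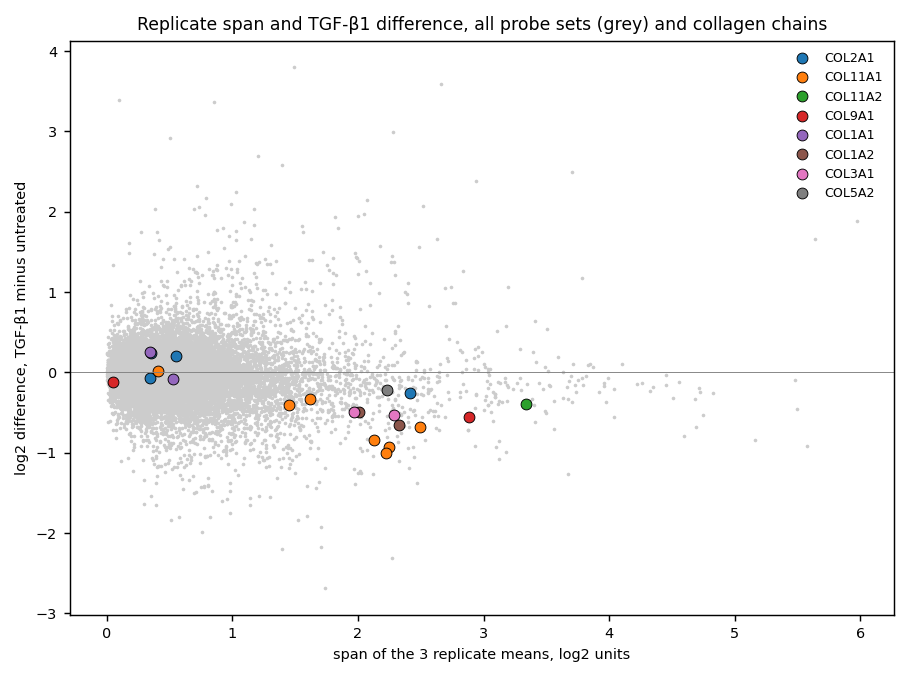
Span of the 3 replicate means in log2 units (x axis) against the log2 difference, TGF-β1 minus untreated (y axis), for all 24016 probe sets (grey) and the collagen chain probe sets (coloured by gene). The 14 collagen probe sets that span at least 1 log2 unit all lie below 0 on the y axis, and the 7 others lie between -0.12 and 0.25.

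Markers of chondrocytes and of fibroblasts that are not members were set beside these spans. Of 11 probe sets of 7 other chondrocyte genes, 6 spanned at least 1 log2 unit, with medians of -0.03, 0.22 and -0.47 in replicates 1, 2 and 3. CNMD, which encodes the cartilage protein chondromodulin, was highest in replicate 2 like COL11A1, with 0.16, 1.60 and -0.16 untreated and -0.68, 1.01 and -0.49 treated. Other chondrocyte genes differed from COL11A1 in being lowest in replicate 3 in both groups. These were CHAD (-1.52 untreated and -1.64 treated), ACAN on Bt.29859.1.S1_at (-0.58 and -0.71) and COMP on Bt.13599.1.A1_at (-1.85 and -0.10). EPYC was lowest in replicate 1 (-1.65 and -1.09), as COL11A1 was. Of 13 probe sets of 7 other fibroblast genes, 3 spanned at least 1 log2 unit, with medians of -0.01, 0.00 and 0.00, and 0 passed the TGF-β1 test. Endothelial markers (12 probe sets) had medians between -0.04 and 0.03 on every array, 0 spanned 1 log2 unit and 0 passed. As each probe set was centred to a median of 0, a list median near 0 can arise from mixed patterns and says little by itself. Macrophage or blood markers (9 probe sets) had medians between -0.04 and 0.06 and 0 passed, but 3 of the 9 spanned at least 1 log2 unit and were high in replicate 1, where COL1A2 and COL3A1 were low. CD68, a lysosomal protein of macrophages, had 1.38, -0.37 and -0.36 untreated and 1.47, 0.02 and -0.02 treated. CD14, a receptor of monocytes, had 1.41 and 1.45 on the replicate 1 arrays by 1 probe set and 0.96 and 0.92 by the other. PTPRC, the common leukocyte antigen, AIF1, CSF1R and TYROBP lay between -0.18 and 0.30 on every array. Osteoblast markers (6 probe sets) had 1 that fell, IBSP, which is also counted below among markers of hypertrophy. Muscle or pericyte markers (6) had TAGLN as 1 that rose, and cell cycle markers (24) had 2 that fell, CENPF and TYMS. Over all probe sets, 3.46% fell and 2.44% rose. The TAGLN call was lost without replicate 2 (0.0785), that of CENPF without replicates 1 and 3 (0.145 and 0.0756) and with quantile normalization (0.127), and that of TYMS without replicates 1 and 2 (0.185 and 0.167) and with quantile normalization (0.165). How much of the collagen spans goes with the mix of cells was not tested, and in cultures of many cells, fewer cells of a type and less RNA per cell cannot be told apart.

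The other collagen chains on the array were set beside these. Of 34 such genes listed, 15 were measured with 27 probe sets, of which 2 rose, 0 fell and 25 did not pass (2.44% of all probe sets rose and 3.46% fell), with a median of 0.04 log2 units. COL12A1, which encodes a chain that coats type I fibrils, rose on 1 of its 3 probe sets, with untreated values of -1.59, 0.51 and -0.27, treated values of -0.59, 1.02 and 0.27 and a mean difference of 0.68 (SE 0.128, adjusted p = 0.0177 by limma). That probe set is an _s_at one, and replicate 1 was again the lowest. COL4A1, which encodes a basement membrane chain, rose on 1 of 2 probe sets, by 0.46 (SE 0.106, adjusted p = 0.0407 by limma). The probe sets of both that did not pass had 0.33 and 0.17 for COL12A1 and 0.04 for COL4A1. COL10A1, the collagen of hypertrophic chondrocytes, had -0.07 (adjusted p = 0.830) and was high in replicate 3, with 1.86 untreated and 1.81 treated. Neither call held in all fits without 1 replicate, with COL12A1 at 0.100 and 0.0601 without replicates 1 and 2, and COL4A1 at 0.103 to 0.202 without each and 0.0763 with quantile normalization.

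Among genes that fold and hydroxylate collagen in the cell, 4 of 37 probe sets rose, 1 fell and 32 did not pass, with a median of 0.07. Over all probe sets, 2.44% rose and 3.46% fell. PLOD2, which hydroxylates lysines in the collagen ends, rose on both of its probe sets, by 1.07 (SE 0.136) and 0.82 (SE 0.114), in all 3 pairs of each, and in every fit without 1 replicate. COLGALT2, which adds galactose to hydroxylysine, rose by 0.64 on an _s_at probe set. CREB3L2, a transcription factor of the secretory path, rose by 0.84. CRTAP, which encodes a subunit of the prolyl 3-hydroxylase complex, fell by 0.46 (SE 0.108, adjusted p = 0.0448 by limma). SERPINH1, the collagen chaperone HSP47, had -0.28 (adjusted p = 0.254), with -0.42 and -0.41 in replicates 1 and 2 and -0.01 in replicate 3. The CRTAP call was lost without any 1 replicate (0.0616 to 0.181) and with quantile normalization (0.0632), that of COLGALT2 without replicate 1 (0.116) and with quantile normalization (0.0576) and that of CREB3L2 without replicate 2 (0.0980).

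Of 8 probe sets of procollagen processing and cross-linking genes, LOXL4, which encodes a lysyl oxidase, rose by 0.72 (SE 0.137, adjusted p = 0.0185 by limma) and 7 did not pass (0.0947 and 0.0560 for LOXL4 without replicates 1 and 2). Of 26 probe sets of collagen breakdown genes, limma called 0. Without adjustment 3 were higher and 5 lower at p under 0.05 in limma's paired fit, where 8.60% and 11.1% of all probe sets were. The methods' t-test before adjustment had 0 higher and 2 lower, where 2.30% of all were higher and 480 of 24016 lower. TIMP3, an inhibitor of matrix proteases, had 0.56 (adjusted p = 0.0646), and MRC2, a receptor that takes up collagen, had 0.41 (adjusted p = 0.0846). Of 21 probe sets of transcription factors known to act on collagen genes, 2 rose, both of BHLHE40 (1.17 and 0.99), 0 fell and 19 did not pass. For each of these lists, the share of all probe sets was 2.44% that rose and 3.46% that fell. SOX9 and MATN3 matched no probe set.

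Proteins that sit on or between cartilage fibrils were represented by 35 probe sets of 20 genes. Of these, 3 rose (2.44% of all probe sets did), 1 fell (3.46% of all did) and 31 did not pass, with a median of 0.05. DPT, which encodes dermatopontin, a binder of collagen fibrils, rose by 2.70, in every fit without 1 replicate, but had an adjusted p of 0.0552 with limma's robust prior. COMP, which binds collagen fibrils in cartilage, rose on both of its probe sets, by 0.79 and 1.05, and CNMD fell by 0.59 (SE 0.126, adjusted p = 0.0293 by limma). Among markers of hypertrophy, IBSP fell by 2.17 on 1 of 2 probe sets (the other had -0.08) and PTH1R fell by 1.05, and 8 of 10 probe sets did not pass. COMP lost both calls without replicate 1 (0.0752 and 0.0876) and with quantile normalization (0.0653 and 0.0849), and 1 of them without replicate 3 (0.0557) and with the robust prior (0.0716). CNMD lost its call without replicates 1 and 2 (0.165 and 0.137) and with quantile normalization (0.0722).

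**Figure D4:**
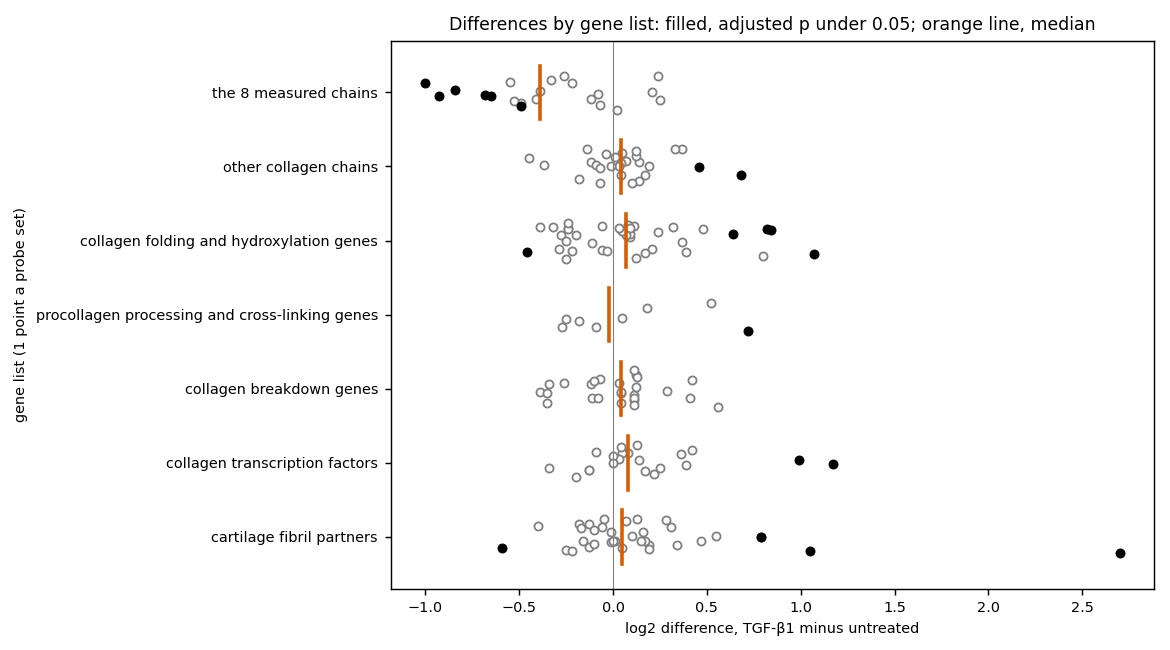
Log2 difference, TGF-β1 minus untreated (x axis), of each probe set (points) in the measured collagen chains and 6 further gene lists (y axis), filled where the adjusted p was under 0.05, with the list's median as a line. The median of the collagen chains lies at -0.39 and those of the other lists between -0.02 and 0.08.

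Of the named genes outside the group, those whose profile lay closest to the COL2A1 mean over the 6 arrays were ACYP2, MAGED1 and BEX5, with root mean square distances of 0.102, 0.118 and 0.127 log2 units. That mean blends Bt.27971.1.S1_at, which varied widely, with probe sets that varied little. Closeness to it was not tested and need not hold for any single COL2A1 probe set.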

How the data were processed

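RNA of the 6 cultures was amplified through 2 cycles with oligo(dT) primers before labelling. The deposited log2 values were made by the authors in GeneSpring (version not given in the sources used here) with Robust Multichip Average, and each probe set has a median of 0 over the arrays (largest absolute median 5e-07). Of 24128 probe sets, 112 controls were left out. The annotation gave 1 symbol to 13292 of the rest, several to 86 and none to 10638, and 13263 were matched to ARS-UCD2.0 symbols by Entrez ID. No array duplicated another (at most 56 identical values in any of 15 pairings).

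Limma 3.58.1 (R 4.3.3, lmFit and eBayes, two-sided) was fitted on all probe sets with the replicate number as a block, and on means over probe sets for 9155 genes. The methods describe cultures of separate cows grown with and without TGF-β1, and whether a replicate number is a cow is not in the labels. The block was kept because deviations from the group means of equal numbers correlated across probe sets at 0.74, 0.694 and 0.845. Those of unequal numbers correlated at -0.683 to 0.185. Deviations within a group cancel out by construction. Low values for unequal numbers thus partly follow from high ones for equal numbers and are not separate evidence. Alternatives were no block, the methods' t-test, quantile normalization, median centring, a robust prior, leaving out each replicate (both arrays), leaving out _s_at and _x_at probe sets, and the most variable probe set per gene. Centred values allow no filter by brightness.

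The members and gene lists were chosen with earlier results of these data known. Every member gene is described. Of each pathway list, genes past the threshold are named (those with the 2 smallest p where none passed), plus SOX9, COMP, MATN3, COL10A1 and SERPINH1, and the 3 genes nearest to COL2A1 in profile.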

Additional observations from a re-analysis of the deposited data

How the results depend on the processing

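Without the replicate block, limma called 0 probe sets, members and lists included, at an adjusted p under 0.05, and so did the methods' t-test after adjustment. Before adjustment the methods' t-test had 480 lower and 552 higher of all probe sets, and 0 members. Among the pathway lists it had 2 lower of the breakdown genes, and 3 higher and 1 lower of the folding genes. Quantile normalization gave 377 higher and 443 lower of all probe sets against 585 and 832, 3 members that fell against 6, 1 higher each of the other collagens and the fibril partners, 0 lower of the fibril partners and of the folding genes. A robust prior gave 1 higher of the fibril partners against 3. Leaving out _s_at and _x_at gave 1 higher of the other collagens against 2. Gene means gave 2 member calls, and the most variable probe set of each gene gave 1.

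Without replicates 1, 2 or 3 in turn, 2 to 6 member probe sets and 0 to 1 member genes fell. Over all probe sets 272 to 590 rose and 267 to 747 fell. Of the other collagens 0 to 1 rose and 0 to 2 fell, of the processing genes 0 to 1 rose, of the fibril partners 1 to 4 rose and 0 to 1 fell, and of the folding genes 0 fell.

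Differences that changed sign, none of them called, were Bt.29864.1.S1_at (-0.01 with quantile normalization, -0.05 to 0.07 without 1 replicate), Bt.13030.1.A1_at (-0.09 to 0.40), Bt.9966.2.S1_a_at and the COL5A2 mean (-0.45 to 0.01), COL1A1 (-0.06 to 0.18) and COL2A1 (-0.10 to 0.10, and -0.26 with its most variable probe set). The cause was not tested.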
